A study of Mus musculus with 8 samples.

Results

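Hair follicle regulators were examined on Affymetrix arrays of newborn FVB mouse whole skin as the 10 probe sets whose single gene symbol in the platform annotation is Wnt10b, Lef1, Edar, Shh, Msx2, Dlx3, Foxn1, Hoxc13 or Gata3. These 10 probe sets, from 9 genes, stand among 22626 tested probe sets. Dlx3 has 2 probe sets and the other genes have 1 each, and no probe set named one of these genes among several. Wnt10b, Lef1, Edar and Shh were taken as bud and matrix signals (4 probe sets), and Msx2, Dlx3, Foxn1, Hoxc13 and Gata3 as hair differentiation factors (6 probe sets).

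The 4 genotypes were pRb-/-;p107-/-, pRb-/-;p107+/+, pRb+/+;p107-/- and pRb+/+, described in words as both lost, pRb lost alone and p107 lost alone for the mutants. Each had 2 arrays, and an array held the pooled RNA of 3 animals. The labels of the pRb+/+ arrays leave out p107, and wild-type p107 was assumed. pRb, encoded by Rb1, and p107, encoded by Rbl1, hold back E2F transcription factors and with them the start of DNA synthesis. The series title places the loss of pRb in the epidermis, but which cells carry either deletion, and the allele or driver used, are not given in the sources used here. Because the tissue was whole skin, fewer follicle cells and less RNA per follicle cell cannot be told apart.

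The hair follicle starts as a bud of the embryonic epidermis, and Wnt ligands, the ectodysplasin receptor Edar and then Shh act in turn to set up the bud and drive its downgrowth. At the base of the growing follicle the proliferating matrix gives rise to the hair shaft and the inner root sheath, and there BMP signals and factors such as Msx2, Dlx3, Foxn1, Hoxc13 and Gata3 direct differentiation. Foxn1 is the gene mutated in nude mice, Hoxc13 activates hair keratin genes, and loss of Gata3 in mice disturbs the inner root sheath.

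Because pRb and p107 act through E2F factors, the regulators' promoters were searched for E2F sites. RefSeq promoters (GRCm38.p6), taken as the 250 bases before the gene start, were at hand for 6 of the 9 genes: Wnt10b, Lef1, Edar, Msx2, Foxn1 and Gata3. The letters TTTGGCGC, TTTCCCGC, TTTGCCGC and TTTCGCGC, on either strand, were found in none of the 6 and in 1.91% of 27025 promoters of this length. The LEF/TCF letters CTTTG followed by AA, AT, TA or TT were found once, in Edar, and in 14.9% of all promoters. The letters CCAAT were found in Msx2 and Foxn1 and in 34.5% of all promoters, and the GATA letters, GATAA after an A or a T, in none of the 6 and in 17%. The motifs searched did not overlap each other in these promoters. No match says only that these letters are not in this window. The promoters of 2 regulators are shown for patterns described below. Msx2 was split by p107 status, and Gata3 was higher on both pRb-/-;p107-/- arrays than on all others. Lef1, Msx2 and the Dlx3 probe set 1450475_at were set apart there too, but lower. How many of all probe sets show such a pattern was not counted, so it is a description only. Capitals mark a motif match in Msx2 and Gata3 (chr13:53472781-53473030, minus strand, and chr2:9878601-9878850, minus strand).
Msx2: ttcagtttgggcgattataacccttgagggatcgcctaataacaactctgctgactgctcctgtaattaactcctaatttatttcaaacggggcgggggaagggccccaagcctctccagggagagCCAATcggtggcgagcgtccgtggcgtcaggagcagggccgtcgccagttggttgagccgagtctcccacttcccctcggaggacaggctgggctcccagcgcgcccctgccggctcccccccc
Gata3: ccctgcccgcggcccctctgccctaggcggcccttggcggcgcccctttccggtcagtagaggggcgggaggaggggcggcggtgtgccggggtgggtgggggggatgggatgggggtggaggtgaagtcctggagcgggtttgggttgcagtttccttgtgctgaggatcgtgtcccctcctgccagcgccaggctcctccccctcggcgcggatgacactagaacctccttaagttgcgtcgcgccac
The Msx2 window has 61.6% G and C and 1 match, the CCAAT letters that begin 124 bases before the gene start, and the Gata3 window has 70% G and C and 0 matches.

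The deposited values were z-scores. Each probe set has mean 0 and SD 1 over the 8 arrays, so a difference of 1 is 1 SD of that probe set, and neither an expression level nor a fold change can be read from it. For the same reason the labelled tissue cannot be checked against levels of its defining markers. Levels are compared only between arrays for 1 probe set and never between genes. Differences are given with the standard error (SE) of a limma linear model without moderation over all 8 arrays. Adjusted p-values are those of Benjamini and Hochberg over all 22626 probe sets, with a threshold of 0.05, and the 95% confidence intervals are not adjusted, so that an interval can exclude 0 where the adjusted p does not pass.

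Of the targeted genes, Rb1 was at -1.56 and -1.28 with both lost, -0.22 and 0.36 with pRb lost alone, 0.02 and 0.4 with p107 lost alone and 1.21 and 1.07 in pRb+/+ skin. Both Rbl1 probe sets were lowest on the 2 pRb+/+;p107-/- arrays (-1.53 to -1.12), whereas on the pRb-/-;p107-/- arrays they lay between -0.31 and 0.31. The first was at 0.08 and 0.21 in pRb+/+ skin, within the range of the arrays labelled pRb-/-;p107-/- (difference -0.14 ± 0.25, limma adjusted p = 0.789), and the second at 0.58 and 1.03 (difference -0.97 ± 0.55, adjusted p = 0.391). With pRb lost alone the first was at 1.3 and 1.14 and the second at 1.4 and -0.02. Against pRb lost alone, both probe sets were lower with both lost, without passing. The differences were -1.22 ± 0.25 (limma adjusted p = 0.126) and -0.85 ± 0.55 (adjusted p = 0.478). Lower Rbl1 in skin labelled pRb-/-;p107-/- than in pRb+/+ skin was not shown, and genotypes are those of the labels throughout. How these probes lie to the deleted parts is unstated in the sources used here. Duplicate arrays correlated across probe sets with r from 0.037 (pRb-/-;p107+/+) to 0.35 (pRb+/+;p107-/-), and arrays of different genotypes with r from -0.417 to 0.076. Control probe sets moved with genotype too: the 24 poly-A controls averaged -0.91 and -0.96 with both lost, 1.38 and 1.13 with pRb lost alone, -0.57 and -0.55 with p107 lost alone and 0.3 and 0.19 in pRb+/+ skin. The 18 hybridization controls averaged from -0.8 to -0.32 on the p107-/- arrays and from -0.03 to 2.05 on the others. The 3 Gapdh controls lay between -0.03 and 0.84 on the 6 mutant arrays and at -1.47 and -1.52 on the pRb+/+ arrays. The 3 beta-actin controls averaged -1 and -1.08 with both lost, 1.21 and 1.41 with pRb lost alone, and from -0.86 to 0.3 on the others. The part of these differences in any result below was not tested.

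None of the 9 regulator genes passed the threshold in any comparison. In pRb-/-;p107-/- against pRb+/+ skin 0 of the 10 probe sets passed, where 2.94% of all probe sets did (limma linear model). The count was likewise 0 of 10 for p107 loss in pRb-/- skin (1.37% of all probe sets), for p107 loss in pRb+/+ skin (0.42%) and for pRb loss in p107-/- skin (0.256%). For pRb loss with p107 kept, and for the interaction of both losses, 0 of 10 passed and the share over all probe sets was 0%. The F test over the 4 genotypes called 0 of 10, against 1.28% of all probe sets, and had an unadjusted p below 0.05 for 4 of 10, against 21.4%. At an unadjusted p below 0.05 the counts were 4 of 10 for loss of both (22.3% of all probe sets), 2 of 10 for p107 loss in pRb-/- skin (19.2%), 4 of 10 for p107 loss in pRb+/+ skin (19.4%), 2 of 10 for pRb loss in p107-/- skin (12%), 2 of 10 for pRb loss with p107 kept (13.4%) and 3 of 10 for the interaction (13.1%). The moderated test of limma also called 0 of 10 in every comparison, and the smallest of the 60 adjusted p-values was 0.0719, for Shh.

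**Figure D1:**
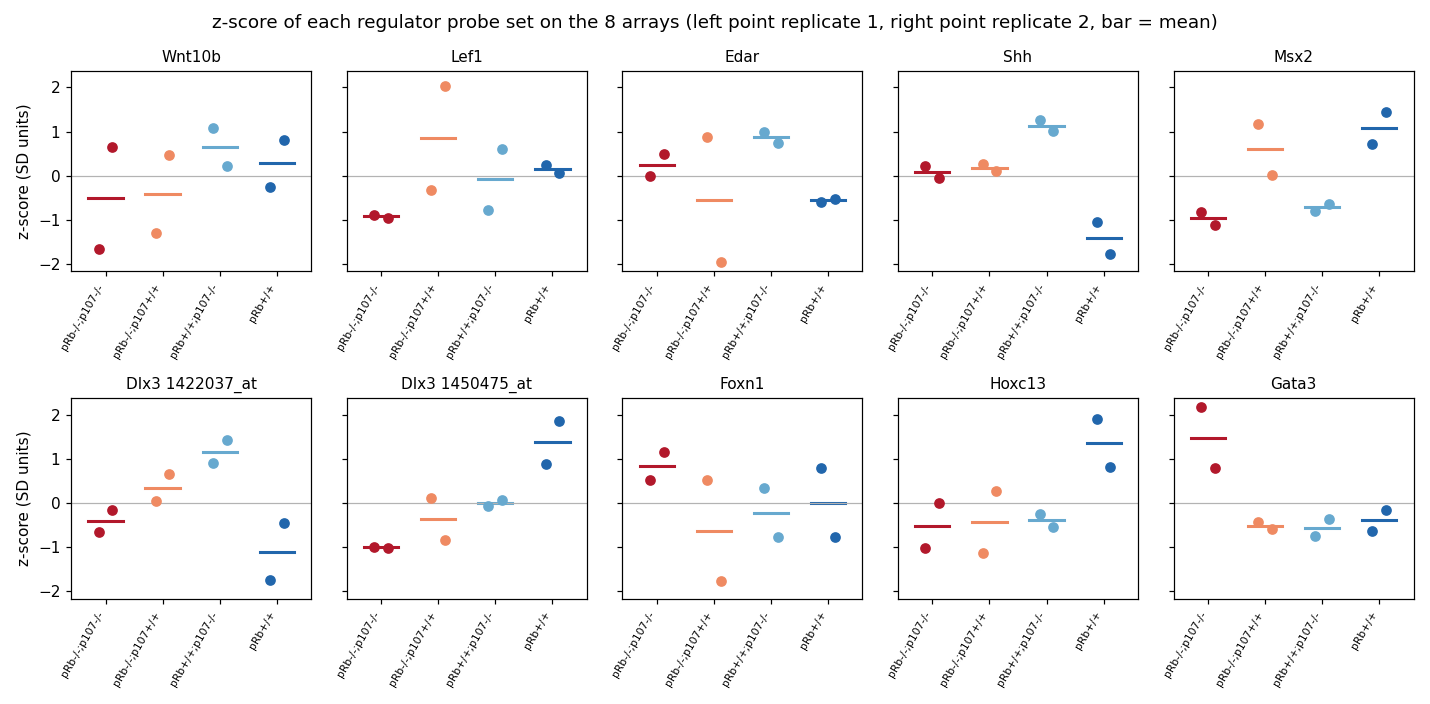
z-scores (SD units, vertical axis) of the 10 probe sets on the 8 arrays, by genotype, with 2 points per genotype (left, replicate 1; right, replicate 2) and a bar at their mean. Shh is highest on the pRb+/+;p107-/- arrays (1.25 and 1.02) and lowest in pRb+/+ skin, Msx2 is lower on all 4 p107-/- arrays than on the other 4, and Gata3 is highest on the pRb-/-;p107-/- arrays (2.17 and 0.79).

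Among the bud and matrix signals, Wnt10b encodes a Wnt ligand of the early bud and matrix. It was at -1.67 and 0.64 in pRb-/-;p107-/-, -1.29 and 0.46 in pRb-/-;p107+/+, 1.08 and 0.22 in pRb+/+;p107-/- and -0.25 and 0.81 in pRb+/+ skin. The arrays overlapped in all 5 comparisons of 2 genotypes, and 26.7% of the variance of Wnt10b lay between genotypes, against a median of 62.7% over all probe sets. Its difference was largest for pRb loss in p107-/- skin, at -1.16 ± 1.13 (SE, limma adjusted p = 0.775, 95% confidence interval -4.31 to 1.98).

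Lef1, the transcription factor through which beta-catenin acts on Wnt target genes, was at -0.88 and -0.96 in pRb-/-;p107-/-, -0.32 and 2.04 in pRb-/-;p107+/+, -0.78 and 0.61 in pRb+/+;p107-/- and 0.25 and 0.05 in pRb+/+ skin. Both pRb-/-;p107-/- arrays thus lay below every other array, while the highest value was that of 1 pRb-/-;p107+/+ array. Between genotypes lay 46.2% of the variance of Lef1, more than in only 30.1% of all probe sets. With both lost against pRb lost alone, the difference was -1.78 ± 0.97 (limma adjusted p = 0.411, interval -4.47 to 0.91). Set against pRb+/+ skin it was -1.07 ± 0.97 (adjusted p = 0.577).

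Edar encodes the receptor of ectodysplasin, whose signal runs through NF-kappaB and is needed for primary hair buds. It was at -0.01 and 0.49 in pRb-/-;p107-/-, 0.88 and -1.96 in pRb-/-;p107+/+, 1 and 0.73 in pRb+/+;p107-/- and -0.59 and -0.52 in pRb+/+ skin. The other 3 genotypes did not overlap, with pRb+/+;p107-/- highest, then pRb-/-;p107-/-, then pRb+/+, but the pRb-/-;p107+/+ duplicates spanned nearly the whole range. The difference for p107 loss in pRb+/+ skin was 1.42 ± 1.02 (limma adjusted p = 0.509, interval -1.42 to 4.26).

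Shh, the Hedgehog ligand made by the bud and later by matrix cells, was at 0.23 and -0.05 in pRb-/-;p107-/-, 0.27 and 0.1 in pRb-/-;p107+/+, 1.25 and 1.02 in pRb+/+;p107-/- and -1.06 and -1.77 in pRb+/+ skin. The order was pRb+/+;p107-/- above both pRb-/- genotypes, which overlapped, and those above pRb+/+. Of its variance 95.2% lay between genotypes, more than in 95.5% of all probe sets. The difference for p107 loss in pRb+/+ skin, 2.55 ± 0.29, had the smallest adjusted p of the 60 planned tests of regulators (limma adjusted p = 0.0719, interval 1.74 to 3.36). For pRb loss with p107 kept it was 1.6 ± 0.29 (adjusted p = 0.183, interval 0.79 to 2.41), and for loss of both 1.5 ± 0.29 (adjusted p = 0.0904, interval 0.7 to 2.31). In p107-/- skin, however, pRb loss went with a difference of -1.05 ± 0.29 (adjusted p = 0.32, interval -1.85 to -0.24), and in pRb-/- skin p107 loss with -0.1 ± 0.29 (adjusted p = 0.894, interval -0.9 to 0.71). The interaction was -2.65 ± 0.41 and did not pass (adjusted p = 0.163). Averaged over pRb status, by a comparison added after the values were seen, p107 loss gave 1.23 ± 0.21 (4 arrays against 4, which overlapped, adjusted p = 0.0681).

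Among the differentiation factors, Msx2 is a homeobox gene induced by BMP signals and needed for the hair shaft programme. It was at -0.83 and -1.11 in pRb-/-;p107-/-, 1.18 and 0.01 in pRb-/-;p107+/+, -0.79 and -0.64 in pRb+/+;p107-/- and 0.72 and 1.45 in pRb+/+ skin. All 4 p107-/- arrays were below all 4 others. Msx2 was the 1 probe set of the 10 with such a split downward by p107 status, which 8.23% of all probe sets showed. The averages of the poly-A and of the hybridization controls had the same split. The difference was -2.06 ± 0.5 for loss of both (limma adjusted p = 0.129, interval -3.45 to -0.67), -1.81 ± 0.5 for p107 loss in pRb+/+ skin (adjusted p = 0.191) and -1.57 ± 0.5 for p107 loss in pRb-/- skin (adjusted p = 0.227). In the comparison averaged over pRb status it was -1.69 ± 0.35 (4 arrays against 4, adjusted p = 0.0946), and 0 of the 10 probe sets passed there, against 3.04% of all probe sets. For pRb loss the values were -0.25 ± 0.5 in p107-/- skin (interval -1.65 to 1.14) and -0.49 ± 0.5 with p107 kept (interval -1.89 to 0.9).

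Dlx3, a homeobox gene of the matrix and hair shaft that is also expressed in differentiating epidermis, gave unlike results in its 2 probe sets. The first, 1422037_at, was at -0.66 and -0.16 in pRb-/-;p107-/-, 0.04 and 0.65 in pRb-/-;p107+/+, 0.9 and 1.42 in pRb+/+;p107-/- and -1.75 and -0.46 in pRb+/+ skin. The second, 1450475_at, was at -0.99 and -1.03, 0.11 and -0.83, -0.07 and 0.07, and 0.88 and 1.86 on the same arrays. The pRb+/+ arrays were thus highest in the second probe set, while the first placed 1 of them lowest and the other among the pRb-/-;p107-/- values. For p107 loss in pRb+/+ skin the differences were 2.27 ± 0.57 (limma adjusted p = 0.169) and -1.37 ± 0.48 (adjusted p = 0.25), and for pRb loss with p107 kept 1.45 ± 0.57 (adjusted p = 0.405) and -1.73 ± 0.48 (adjusted p = 0.295). Loss of both went with 0.7 ± 0.57 in the first probe set (adjusted p = 0.534) and -2.38 ± 0.48 in the second one (adjusted p = 0.0964, interval -3.72 to -1.05). In both comparisons within mutant skin the signs matched, at -0.75 ± 0.57 and -0.65 ± 0.48 for p107 loss in pRb-/- skin and -1.57 ± 0.57 and -1.01 ± 0.48 for pRb loss in p107-/- skin. The platform annotation gives both probe sets the same accession. Over the 8 arrays, which are duplicates of 4 genotypes and not independent points, the pair had a Pearson r of -0.3. Among 3057 genes with exactly 2 probe sets the median r was 0.2, and 35% had an r below 0. No direction is therefore given for Dlx3.

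Foxn1, a forkhead factor of differentiating matrix and cortex cells, was at 0.53 and 1.16 in pRb-/-;p107-/-, 0.51 and -1.77 in pRb-/-;p107+/+, 0.34 and -0.78 in pRb+/+;p107-/- and 0.79 and -0.78 in pRb+/+ skin. In 3 of the 4 genotypes the duplicates lay on opposite sides of 0, and 33.1% of the variance lay between genotypes. The difference for p107 loss in pRb-/- skin was 1.47 ± 1.08 (limma adjusted p = 0.532, interval -1.53 to 4.48).

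Hoxc13 was at -1.02 and -0.01 in pRb-/-;p107-/-, -1.14 and 0.26 in pRb-/-;p107+/+, -0.24 and -0.55 in pRb+/+;p107-/- and 1.89 and 0.81 in pRb+/+ skin. Both pRb+/+ arrays were above all 6 mutant arrays, and the 3 mutant genotypes overlapped. Between genotypes lay 69.7% of the variance of Hoxc13, more than in 59.3% of all probe sets (F test, unadjusted p = 0.153). Relative to pRb+/+ skin the differences were -1.86 ± 0.73 for loss of both (limma adjusted p = 0.25, interval -3.88 to 0.16), -1.79 ± 0.73 for pRb loss with p107 kept (adjusted p = 0.42, interval -3.81 to 0.23) and -1.75 ± 0.73 for p107 loss in pRb+/+ skin (adjusted p = 0.303, interval -3.77 to 0.27). These 3 comparisons share the pRb+/+ arrays, on which the Gapdh controls were also apart. Between mutants the differences were -0.07 ± 0.73 for p107 loss in pRb-/- skin (interval -2.09 to 1.95) and -0.12 ± 0.73 for pRb loss in p107-/- skin (interval -2.14 to 1.9).

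Gata3, a zinc finger factor of the inner root sheath, of suprabasal epidermis and of T cells, was at 2.17 and 0.79 in pRb-/-;p107-/-, -0.43 and -0.6 in pRb-/-;p107+/+, -0.76 and -0.37 in pRb+/+;p107-/- and -0.63 and -0.16 in pRb+/+ skin. Both arrays with both genes lost were above the other 6, which overlapped across their genotypes. Between genotypes lay 83.4% of the variance of Gata3, more than in 79% of all probe sets. The differences were 2.04 ± 0.54 for pRb loss in p107-/- skin (limma adjusted p = 0.302, interval 0.55 to 3.54), 1.99 ± 0.54 for p107 loss in pRb-/- skin (adjusted p = 0.18, interval 0.49 to 3.48) and 1.87 ± 0.54 for loss of both (adjusted p = 0.163, interval 0.38 to 3.37). Either loss alone gave -0.12 ± 0.54 (pRb) and -0.17 ± 0.54 (p107), and the interaction was 2.16 ± 0.76 (adjusted p = 0.371). Lymphocyte markers (16 of 18 measured) averaged -0.24 and 0.06 with both lost and from -0.43 to 0.65 on the other 6. Epidermal keratinocyte genes (13 of 14 measured) averaged 0.89 and 0.75 with both lost and from -0.71 to 0.47 on the other 6. Whether single markers are at or near 0 cannot be read from z-scores, and the part of either cell type in the Gata3 values was not tested.

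**Figure D2:**
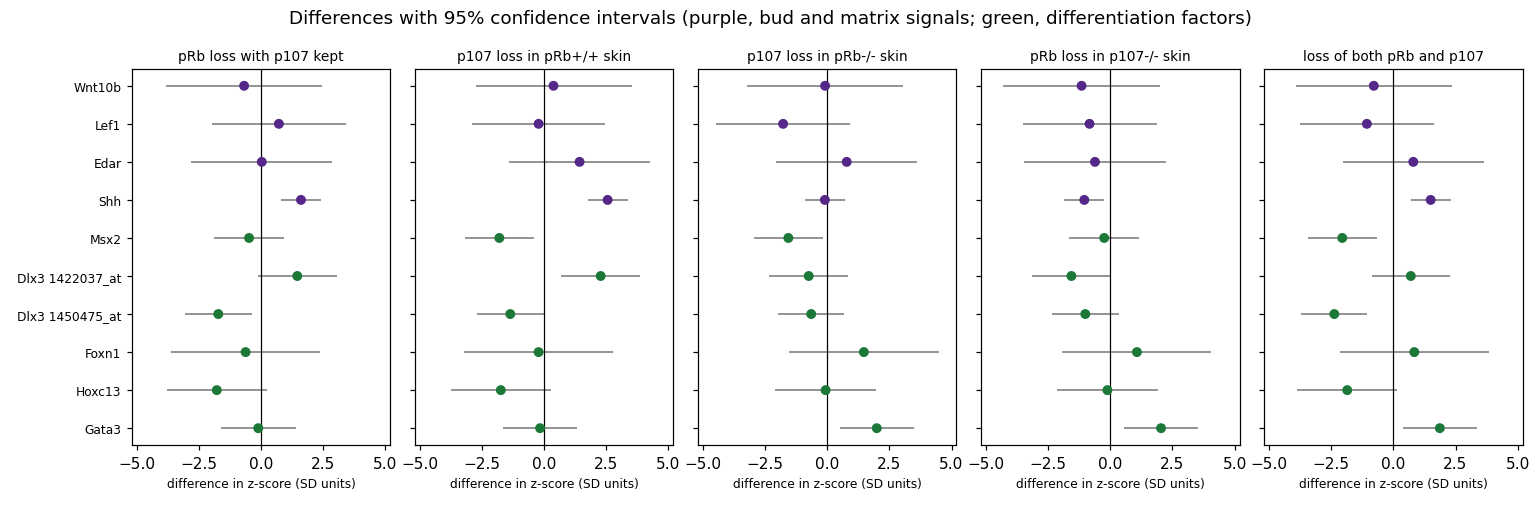
Difference in z-score (SD units, horizontal axis) of each probe set in the 5 comparisons of 2 genotypes, with unadjusted 95% confidence intervals of the limma linear model. Bud and matrix signals are purple and differentiation factors green. Intervals of Shh exclude 0 in 4 of the 5 panels, on the positive side in 3 and on the negative side for pRb loss in p107-/- skin, and those of Wnt10b, Lef1, Edar, Foxn1 and Hoxc13 include 0 in all 5.

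Groups that do not overlap were common with 2 arrays a genotype, so a single regulator without overlap says little. Both arrays of a genotype lay beyond all other arrays for Lef1, Msx2, Gata3, Hoxc13 and others. How often this occurs over all probe sets was not counted. For loss of both, 3 of the 10 probe sets were higher without overlap and 4 lower, against 28.5% and 26.9% of all probe sets. For p107 loss in pRb-/- skin the counts were 2 higher (22.9%) and 4 lower (28.2%), and for p107 loss in pRb+/+ skin 3 higher (35.2%) and 3 lower (22.1%). For pRb loss in p107-/- skin they were 2 higher (17.2%) and 6 lower (33.7%), and with p107 kept 2 higher (23%) and 2 lower (17.4%).

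The bud and matrix signals and the differentiation factors were set beside each other, with Dlx3 as the mean of its probe sets. Those 2 probe sets differed in sign for p107 loss in pRb+/+ skin (2.27 and -1.37). By array, the 4 signals averaged -0.58 and 0.03 with both lost, -0.12 and 0.16 with pRb lost alone, 0.64 and 0.65 with p107 lost alone and -0.41 and -0.36 in pRb+/+ skin. The 5 factors averaged 0 and 0.05, 0.04 and -0.44, -0.21 and -0.32, and 0.47 and 0.41 on the same arrays. Factors minus signals, which sets averaged z-scores and not levels against each other, was therefore -0.84 and -0.96 with p107 lost alone. It was 0.88 and 0.76 in pRb+/+ skin, and lay between these with both lost (0.59 and 0.02) and with pRb lost alone (0.16 and -0.6). By comparison, the median difference for p107 loss in pRb+/+ skin was 0.9 over the 4 signal probe sets (3 of 4 positive) and -0.8 over the 6 factor probe sets (5 of 6 negative), beside 0.35 over all probe sets. The signals were uneven there, with Shh at 2.55, Edar at 1.42, Wnt10b at 0.37 and Lef1 at -0.23. In pRb-/- skin p107 loss gave medians of -0.1 and -0.36, beside -0.1 over all, and for pRb loss with p107 kept 0.36 and -0.56, beside 0.12. For pRb loss in p107-/- skin all 4 signals were negative (median -0.94) and the factors had a median of -0.19, beside -0.33 over all probe sets. For loss of both the medians were 0 and -0.58, beside 0.1. For the interaction all 4 signals were negative (median -1.09) and 5 of 6 factor probe sets positive (median 1.2), beside -0.44 over all. In the other comparisons except pRb loss in p107-/- skin the signals were of mixed sign, and the factors were so in all 6. No p is given for these averages because the members were chosen with results known.

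**Figure D3:**
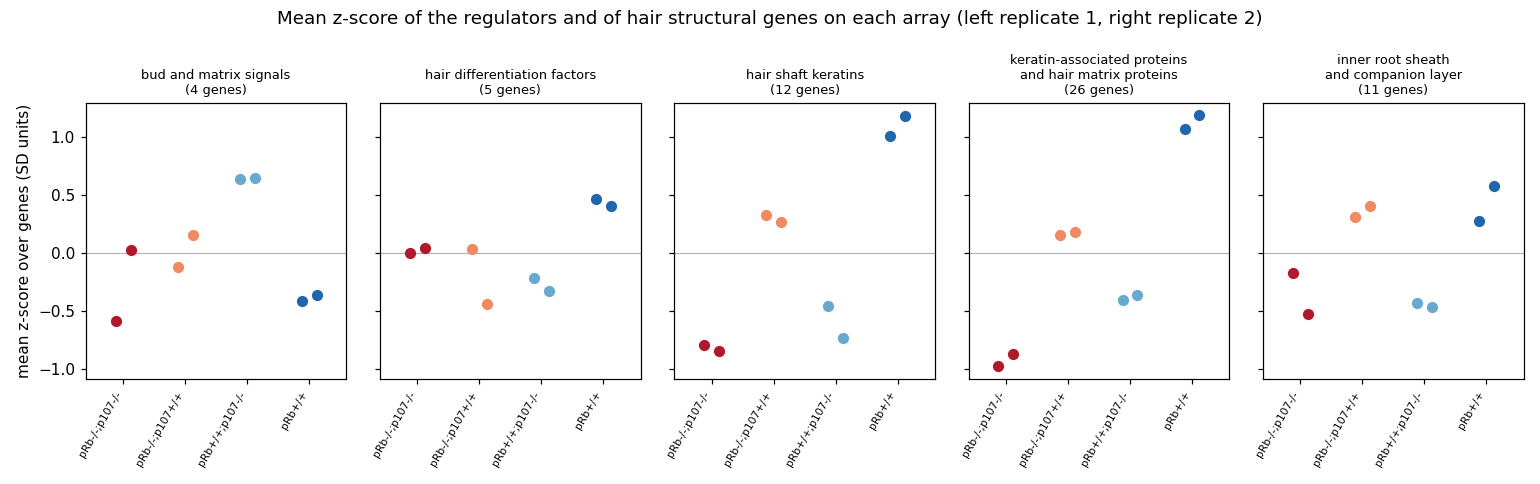
Mean z-score over genes (SD units, vertical axis) on each array, by genotype, for the bud and matrix signals, the differentiation factors, hair shaft keratins, keratin-associated and hair matrix proteins, and the inner root sheath and companion layer (left point, replicate 1; right point, replicate 2). Hair shaft keratins average -0.79 and -0.84 with both lost, against 1.01 and 1.18 in pRb+/+ skin. The range of a mean z-score depends on how alike the genes of a group are, so ranges are not compared between groups.

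Structural genes of the hair, which factors such as Hoxc13 and Foxn1 help to activate, were described beside their regulators with 1 probe set for each of 12393 genes. For loss of both, 8 of 12 hair shaft keratin genes fell and 0 rose (median difference -2.39, against 0.14 over all genes), where 1.6% of all genes fell and 1.29% rose. Krt31 (-2.5 ± 0.07, limma adjusted p = 0.00889) and Krt86 (-2.38 ± 0.15, adjusted p = 0.0186) were among them. Of the keratin-associated and hair matrix protein genes 18 of 26 fell, such as Krtap6-5 (-2.54 ± 0.05, adjusted p = 0.00665). In the inner root sheath and companion layer list 5 of 11 fell, among them the trichohyalin gene Tchh (-2.32 ± 0.2, adjusted p = 0.0271) and Krt25 (-2.34 ± 0.22, adjusted p = 0.0324), and the desmosomal cadherin gene Dsc1, also expressed in epidermis, rose (2.62 ± 0.17, adjusted p = 0.0188). For p107 loss in pRb+/+ skin 3 of 12 hair shaft keratins and 8 of 26 keratin-associated and hair matrix genes fell (0.242% of all genes fell and 0.129% rose), and in pRb-/- skin 2 of 12 and 7 of 26 (0.815% fell and 0.629% rose). For pRb loss in p107-/- skin the counts were 0 of 12 and 1 of 26 (0.0968% of all genes fell and 0.226% rose). With p107 kept they were 0 of both, where 0% of all genes passed. In that comparison 11 of 12 hair shaft keratins and 26 of 26 keratin-associated and hair matrix genes were negative. Their medians were -0.89 and -0.98, against 0.1 over all genes. On the single arrays, Krt31 was at -1.2 and -1.19 with both lost, 0.44 and 0.29 with pRb lost alone, -0.42 and -0.53 with p107 lost alone and 1.33 and 1.28 in pRb+/+ skin. Krt31 had the smallest p of the list, and its order of genotypes did not hold for all 12 keratins. Krt35, Krt36 and Krt82 overlapped between both lost and p107 lost alone, Krt32 was lower with p107 lost alone than with both lost, and Krt84 was at 1.01 and 1.18 with both lost, against -0.84 and -0.76 in pRb+/+ skin. The p107-/- arrays also had the lower poly-A and hybridization controls. With moderation limma called 0 probe sets in each comparison, so every rise or fall given here and below rests on the test without moderation. Over all probe sets the count for loss of both, 666, was 0 with either pRb-/-;p107-/- array left out, 242 with either pRb-/-;p107+/+ array left out, 1 with either pRb+/+;p107-/- array left out, and 3 and 2 with the first and the second pRb+/+ array left out. In the other comparisons it was 17 or fewer without any single array, and each such fit has 3 residual degrees of freedom.

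The pathways in which the regulators act were described from lists chosen with earlier results of these data known. In the Hedgehog pathway, downstream of Shh, 0 of 11 measured genes passed in any comparison, where the share of all genes ran from 0% for pRb loss with p107 kept through 0.323% (in p107-/- skin), 0.371% (p107 loss in pRb+/+ skin) and 1.44% (in pRb-/- skin) to 2.89% for loss of both. The list had a median difference of 0.75 for p107 loss in pRb+/+ skin (9 of 11 positive, against 0.4 over all genes), 0.11 in pRb-/- skin (6 of 11 positive, against -0.05), -0.64 for pRb loss in p107-/- skin (9 of 11 negative, against -0.34), -0.37 with p107 kept (6 of 11 negative, against 0.1) and 0.3 for loss of both (6 of 11 positive, against 0.14). For pRb loss with p107 kept Shh itself differed by 1.6, so the list did not have its sign in every comparison. Gli1, a transcriptional effector and target of the pathway, was at -0.24 and -0.8 with both lost, -0.29 and -1.64 with pRb lost alone, 1.13 and 1.08 with p107 lost alone and -0.25 and 1.01 in pRb+/+ skin. Like Shh it was highest with p107 lost alone, but it was not lowest in pRb+/+ skin. The receptor and target gene Ptch1 was at -1.14 and -1.51, -0.86 and 0.81, 0.61 and 0.72, and 0.36 and 1 in the same order of genotypes. This probe set was lowest with both lost, but for loss of both the other probe set of Ptch1 had the opposite sign. Hhip, a target that binds and restrains Hedgehog ligands, differed by -2.25 ± 0.43 for pRb loss in p107-/- skin (limma adjusted p = 0.204).

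In the Wnt pathway list, which holds the partners of Wnt10b and Lef1, 1 of 47 genes fell for loss of both: the ligand gene Wnt5a, by 2.3 ± 0.18 (limma adjusted p = 0.0236), where 1.6% of all genes fell. Wnt5a was at -1 and -0.74 with both lost, 0.02 and 0.39 with pRb lost alone, -0.7 and -0.84 with p107 lost alone and 1.51 and 1.35 in pRb+/+ skin. With p107 loss in pRb-/- skin the frizzled receptor gene Fzd4 fell (-2.43 ± 0.22, adjusted p = 0.0429, its other probe set having the opposite sign) and the secreted modulator gene Sfrp2 rose (1.4 ± 0.13, adjusted p = 0.0445). These are 1 of 47 in each direction, where 0.815% of all genes fell and 0.629% rose, near the background. The other 45 did not pass, and 0 of 47 passed for p107 loss in pRb+/+ skin or for pRb loss in either p107 status. Axin2, a target gene of the pathway, had duplicates far apart with pRb lost alone and in pRb+/+ skin, at 0.56 and 0.96, 0.63 and -1.21, 0.26 and 0.35, and -1.89 and 0.34 in the same order of genotypes.

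In the ectodysplasin pathway 0 of 12 measured genes passed in any comparison, where the share of all genes was at most 2.89%, for loss of both. Edaradd, the adaptor of Edar, was at 0.68 and 1.27 with both lost, -1.71 and -0.29 with pRb lost alone, 0.71 and 0.58 with p107 lost alone and -1 and -0.24 in pRb+/+ skin. All 4 p107-/- arrays were above the others, with differences of 1.98 ± 0.61 where pRb was lost too (limma adjusted p = 0.216) and 1.26 ± 0.61 where it was kept (adjusted p = 0.354).

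In the BMP pathway, upstream of Msx2, 2 of 24 genes fell for loss of both and 0 rose, where 1.6% of all genes fell and 1.29% rose. These were the pseudoreceptor gene Bambi (-1.87 ± 0.16, limma adjusted p = 0.0271) and the signal transducer gene Smad1 (-1.68 ± 0.19, adjusted p = 0.0418). Bambi also fell with p107 loss in pRb+/+ skin, as 0.242% of all genes did (-2.38 ± 0.16, adjusted p = 0.0446), and Smad1 with p107 loss in pRb-/- skin, as 0.815% did (-2.25 ± 0.19, adjusted p = 0.0383, its other probe set having the opposite sign). Like Msx2, Bambi was lower on all 4 p107-/- arrays (-0.59, -0.63, -1.03 and -1.22) than on the other 4 (0.58, 0.36, 1.09 and 1.43). Id3, a BMP target gene, differed by -2.42 ± 0.41 for loss of both (adjusted p = 0.0755). The medians of the list were -1.12 for p107 loss in pRb-/- skin (18 of 24 negative, against -0.05 over all genes) and 0.56 for pRb loss with p107 kept (18 of 24 positive, against 0.1). For loss of both the median was -0.18 (15 of 24 negative, against 0.14). It was -0.4 for p107 loss in pRb+/+ skin (15 of 24 negative, against 0.4). For pRb loss in p107-/- skin it was -0.34, the same as over all genes (14 of 24 negative).

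Of 34 other measured transcription factor genes of the follicle, 1 rose and 1 fell for loss of both, where 1.29% of all genes rose and 1.6% fell, so that the list stood near the background. Ovol1, a zinc finger factor of epidermis and follicle, rose (2.15 ± 0.15, limma adjusted p = 0.0207) and did so for pRb loss in p107-/- skin as well, as 0.226% of all genes did (2.37 ± 0.15, adjusted p = 0.0457). Foxq1, the gene mutated in satin mice, whose hair shafts are abnormal, fell (-1.85 ± 0.21, adjusted p = 0.0434). Foxq1 was at -0.23 and -0.48 with both lost, -0.04 and -0.2 with pRb lost alone, -1.27 and -0.76 with p107 lost alone and 1.55 and 1.44 in pRb+/+ skin. As with Hoxc13, both pRb+/+ arrays were thus above all mutant arrays, a pattern whose share over all probe sets was not counted. Msx1, the relative of Msx2, differed by 1.24 ± 0.22 for p107 loss in pRb+/+ skin (adjusted p = 0.108) and by 1.51 ± 0.22 where pRb was lost too (adjusted p = 0.0765, its other probe set having the opposite sign).

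Duplicate arrays differed widely for several regulators. The gap between the 2 arrays of a genotype had a median over the 10 probe sets of 0.5 with both lost, 1.29 with pRb lost alone, 0.35 with p107 lost alone and 0.85 in pRb+/+ skin, beside 0.71, 0.97, 0.55 and 0.9 over all probe sets. The widest gaps were those of Edar (2.84), Lef1 (2.36) and Foxn1 (2.29) with pRb lost alone and of Wnt10b (2.31) with both lost. The second array with pRb lost alone held the highest value of Lef1 and the lowest of Edar and Foxn1. Across all probe sets that array held the highest or lowest value in 19.9%, and it did so for 3 of the 10 here. Without that array the difference of Lef1 for pRb loss with p107 kept was -0.47, against 0.71 with it, and that of Edar was 1.43, against 0.02. Shh, by contrast, had gaps of 0.17 to 0.72 in the 4 genotypes.

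**Figure D4:**
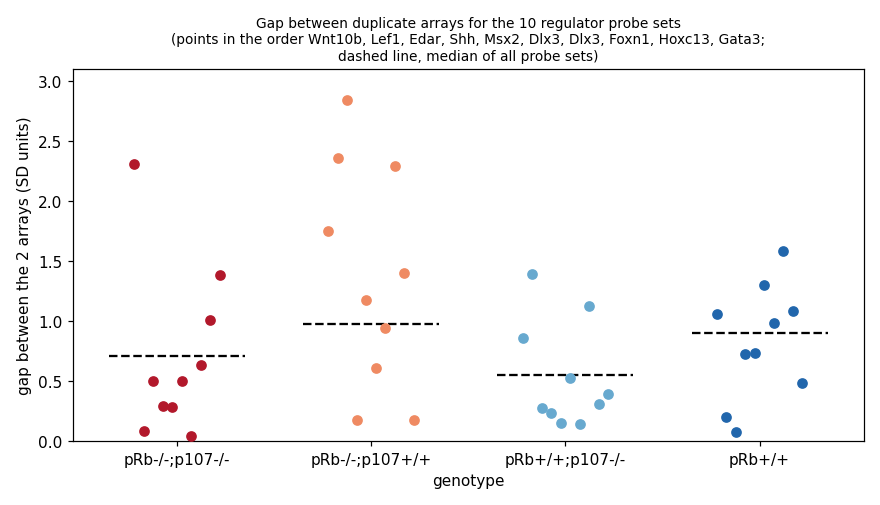
Gap between the 2 arrays of each genotype (SD units, vertical axis) for the 10 probe sets, with the median of all 22626 probe sets as a dashed line. The widest gap, 2.84 for Edar, is in pRb-/-;p107+/+ skin, where the median over the 10 is 1.29.

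Genes with the most similar pattern were found by Pearson r over the 8 arrays, with the 3 highest single-gene probe sets taken per regulator. The arrays are duplicates of 4 genotypes, and over 8 values many probe sets reach a high r, so these are descriptions. Msx2 was most like Mxd4 (0.994), Mrpl41 (0.988) and Cc2d1a (0.988). Shh was most like Fgd2 (0.981), Tcf12 (0.978) and Ankrd1 (0.978). Gata3 was most like the glucose transporter gene Slc2a1 (0.977), Mapk13 (0.977) and Klf13 (0.967), and Hoxc13 like Timm17b (0.964), Tomm20 (0.962) and Crot (0.955). The first Dlx3 probe set was most like the integrin gene Itga5 (0.963), Diablo (0.951) and Efna4 (0.945), and Foxn1 like Zmym3 (0.957), Rerg (0.957) and Rd3 (0.954). Edar was most like Slc35b4 (0.984), Chrne (0.977) and Prom1 (0.965), Lef1 like Irak1bp1 (0.962), Pibf1 (0.954) and Mageh1 (0.931), and Wnt10b like Msmb (0.936), Abhd1 (0.907) and Vmn2r26 (0.901).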

How the data were processed

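RNA of whole skin was pooled from 3 animals a genotype for each of 8 arrays, per the series text and the labels' titles. RMA is named in the submitters' processing notes, with no version. The values deposited by the authors are a score, standardized to mean 0 and SD 1 per probe set. No label records that step or says if it was done on log or linear values. With 8 values no z-score can pass 2.47, so large differences saturate. Of 22690 probe sets, 64 array controls were left out. Gene names came from the platform annotation (20380 of 22626 with 1 symbol, 691 with several, 1555 with none), and all 10 regulator probe sets kept their symbol in the RefSeq gene table.

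A linear model of the 4 genotype means was fitted with limma 3.58.1 in R 4.3.3 (4 residual degrees of freedom), without moderation, because standardization ties each variance to the differences, whereas a test of 1 probe set alone does not depend on its shift and scale. Nothing states that duplicates came from separate pools, so p-values measure only the spread between these arrays, and the number of arrays limits precision. Whether same-numbered arrays pair was checked by the correlation of their deviations from the genotype means (r from -0.131 to 0.105 over 6 pairs of genotypes), and they were not treated as pairs. Alternatives were the moderated test, array medians subtracted, quantile normalization, a replicate block, and each array left out.

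Other genes rest on 1 probe set each (names ending _at first, then _a_at, _s_at and _x_at, then the lowest number). All regulator probe sets are reported, with the targeted genes, up to 4 genes of the smallest p per list and comparison and the 3 most alike genes per regulator. Outside this rule stand Axin2, named for its role, and Krt36, Krt82 and Krt84, named as unlike Krt31, all after their values were seen. The regulators and the 15 lists were chosen with earlier results of these data known.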

Additional observations from a re-analysis of the deposited data

Results flagged for a closer look

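Shh differed by 1.6 for pRb loss with p107 kept and by -1.05 for pRb loss in p107-/- skin, with both pRb-/- arrays above the controls in the first and below them in the second. The first Dlx3 probe set, 1422037_at, did the same with 1.45 and -1.57. For p107 loss that Dlx3 probe set differed by 2.27 in pRb+/+ skin and by -0.75 in pRb-/- skin, again without overlap. The interaction, which tests these contrasts in opposite directions, did not pass for Shh (-2.65 ± 0.41, limma adjusted p = 0.163) or for Dlx3 (-3.02 ± 0.8, adjusted p = 0.274). The second Dlx3 probe set was negative in all 4 comparisons. Opposite differences without overlap occurred for pRb loss in 2 of the 10 regulator probe sets and in 10.7% of all probe sets, and for p107 loss in 1 of 10 and in 8.34%.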

How the results depend on the processing

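No regulator probe set passed under any alternative (0 of 108 counts), and 40 of the 60 differences kept their sign under all of them. The smallest adjusted p of any alternative was 0.0659 (second Dlx3 probe set, loss of both, array medians subtracted), and over the alternatives the adjusted p ran from 0.0762 to 0.338 for Shh with p107 loss in pRb+/+ skin and from 0.0821 to 0.388 for Msx2 with loss of both. Counts over all probe sets depended on the test. The moderated test of limma gave 0 throughout, against 95 and 310 for p107 loss with pRb kept and with it lost, 58 for pRb loss in p107-/- skin, 666 for loss of both and 289 for the F test. Array medians subtracted gave 52 and 137 for p107 loss in pRb+/+ and in pRb-/- skin, 2 for pRb loss in p107-/- skin and 97 for the F test. Quantile normalization gave 171, 370 and 150 for p107 loss in pRb-/- skin, loss of both and the F test. With the replicate block, which numbers alone did not justify, the counts were 1 for pRb loss with p107 kept, 1 and 2 for p107 loss in pRb+/+ and in pRb-/- skin, 0 for pRb loss in p107-/- skin, 37 for loss of both and 3 for the F test. Leaving out each array gave 0 to 4 for pRb loss with p107 kept, 0 to 2 for p107 loss in pRb+/+ skin, 0 to 17 in pRb-/- skin, 0 to 2 for pRb loss in p107-/- skin, 0 to 242 for loss of both, 0 to 1 for the interaction and 0 to 4 for the F test. Fewer arrays, or a block, leave 3 residual degrees of freedom, and otherwise the cause was not tested.

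Subtracting array medians moved the median of all differences by -0.31 to 0.46. It reversed Edar for pRb loss with p107 kept (-0.17), Wnt10b, Shh and Hoxc13 for p107 loss in pRb-/- skin (0.06, 0.06 and 0.08) and Msx2 and Hoxc13 for pRb loss in p107-/- skin (0.03 and 0.16). Quantile normalization reversed Edar for pRb loss with p107 kept (-0.24), Shh for p107 loss in pRb-/- skin (0.05) and Msx2 and Hoxc13 for pRb loss in p107-/- skin (0.18 and 0.21). Leaving out single arrays reversed the following, given as lowest to highest. For pRb loss with p107 kept these were Wnt10b (-1.57 to 0.18), Lef1 (-0.47 to 1.89), Edar (-1.4 to 1.43), Msx2 (-1.08 to 0.1), Foxn1 (-1.78 to 0.51) and Gata3 (-0.36 to 0.12). For p107 loss in pRb+/+ skin they were Wnt10b (-0.16 to 0.9), Lef1 (-0.93 to 0.46), Foxn1 (-1.01 to 0.56) and Gata3 (-0.41 to 0.07), and in pRb-/- skin Wnt10b (-1.25 to 1.06), Edar (-0.64 to 2.2), Shh (-0.24 to 0.05) and Hoxc13 (-0.77 to 0.63). For pRb loss in p107-/- skin it was Hoxc13 (-0.62 to 0.39), for loss of both Wnt10b (-1.94 to 0.37), and for the interaction Wnt10b (-1.62 to 0.69), Edar (-2.06 to 0.78) and Msx2 (-0.35 to 0.83). The scores hold no signal over background.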

Other observations

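Cell types around the follicle are given as values, from lists chosen with earlier results of these data known. Of 10 measured sebocyte genes 4 fell for loss of both and 0 rose (1.6% of all genes fell and 1.29% rose), among them the desaturase gene Scd1 (-2.09 ± 0.06, limma adjusted p = 0.00889) and the fatty acid elongase gene Elovl3 (-1.95 ± 0.23, adjusted p = 0.0438). The melanin synthesis gene Dct fell (-2.46 ± 0.18, adjusted p = 0.0209), 1 of 9 melanocyte genes. Among 20 dermal papilla and dermal condensate genes 1 rose, Igfbp3 (1.77 ± 0.15, adjusted p = 0.0271), where 1.29% of all genes rose. Of 13 epidermal keratinocyte genes 1 rose, the differentiation gene Krtdap (2.4 ± 0.2, adjusted p = 0.0267), and 12 of 13 were positive (median 1.56, against 0.14 over all genes).

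For p107 loss in pRb-/- skin Scd1 (-2.41 ± 0.06, limma adjusted p = 0.0135) and Cidea (-2.15 ± 0.13, adjusted p = 0.0247) fell, 2 of 10 sebocyte genes where 0.815% of all genes fell, as did 1 of 9 melanocyte genes, Dct (-2.01 ± 0.18, adjusted p = 0.0404). Of 20 dermal papilla and dermal condensate genes 1 rose, Igfbp3 (2.42 ± 0.15, adjusted p = 0.0247), where 0.629% of all genes rose, and 1 fell, the netrin gene Ntn1 (-1.94 ± 0.13, adjusted p = 0.028, its other probe set having the opposite sign). The part of the lower poly-A and hybridization controls on the p107-/- arrays in these values was not tested. Mast cell genes (3 rose and 1 fell of 11) and fibroblast genes (0 rose and 2 fell of 14) also held calls for loss of both, where 1.29% of all genes rose and 1.6% fell, and lymphocyte genes held 0 of 16. Of the fibroblast calls, 1 was Col5a1 (-1.43 ± 0.13, limma adjusted p = 0.033), its 2 other probe sets having the opposite sign.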
